A study of Homo sapiens with 3 samples.

Results

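The genes described here build, fold, inspect and ship proteins in the endoplasmic reticulum (ER), or signal when that work falls behind. They are 42 genes chosen by symbol and found in the deposited count table by their GENCODE gene names, out of 58884 gene rows. All 42 were found. By role they are 16 chaperones and folding enzymes, 9 genes of ER-associated degradation, 11 genes of the translocon, 3 KDEL receptors, and a last group of 3 made up of the stress sensors ERN1 and ATF6 with the transcription factor XBP1. They were measured in LNCaP, a human prostate cancer cell line, by RNA sequencing with an mRNA library kit. Cells were plated for 24 h before 72 h of culture in serum-free medium that held 2% fetal bovine serum and 50% conditioned medium (CM). The CM was PPAT-CM, marked tumor in the labels, PVAT-CM, marked normal, or control-CM. PPAT stands for periprostatic adipose tissue and PVAT is not expanded in the labels, and how the media were made, and from how many donors, is not given in the sources used here. There was 1 library for each medium. No spread between cultures could therefore be measured, no p-value is given, and every difference below is a difference between libraries.

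Proteins bound for secretion or for membranes enter the ER through the Sec61 channel, are trimmed by signal peptidase and are folded by chaperones such as BiP (HSPA5), by the lectin chaperones calreticulin and calnexin, and by disulfide isomerases. KDEL receptors return escaped chaperones from the Golgi, and proteins that fail to fold are sent back to the cytosol for degradation through the SEL1L and SYVN1 ligase complex. When unfolded proteins build up, the unfolded protein response sets in: the sensor IRE1 (ERN1) cuts a short intron out of XBP1 mRNA, ATF6 is cleaved in the Golgi, and the kinase PERK (EIF2AK3) slows translation. Spliced XBP1 and cleaved ATF6 then bind promoters of chaperone genes, often at the ER stress element (ERSE), in which NF-Y holds the CCAAT end and ATF6 or XBP1 the CCACG end. Luminal prostate cells are secretory, with prostate-specific antigen (KLK3) among their products.

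The ERSE is shown first because it is the best known control element of chaperone genes. RefSeq promoter windows, which run from 250 bases before to 50 bases after a transcription start (GRCh38.p14), were found for 37 of the 42 genes, 47 windows in all since some genes have several starts. The motif searched was CCAAT, then any 9 bases, then CCACG, on both strands. It was found in 9 of the 47 windows (19.1%), belonging to 7 genes, against 27 of 34943 windows of all genes (0.0773%). The windows of all genes include those of the members. The element is known from promoters of chaperone genes, so the higher share among the members follows from that and is not a result of these data. Of the 7 genes, 6 are chaperones and the other is XBP1. The matches are written 5′ to 3′ on the strand that carries the motif, with its fixed letters in capitals.
XBP1, chr22:28800603-28800621, minus strand: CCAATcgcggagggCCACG
PDIA6, chr2:10812853-10812871, minus strand: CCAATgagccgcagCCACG
HSPA5, chr9:125241391-125241409, minus strand: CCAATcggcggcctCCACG
HSP90B1, chr12:103930216-103930234, plus strand: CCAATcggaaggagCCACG
HSP90B1, chr12:103930321-103930339, minus strand: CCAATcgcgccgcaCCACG
CALR, chr19:12938384-12938402, minus strand: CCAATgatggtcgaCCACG
CANX, chr5:179698778-179698796, plus strand: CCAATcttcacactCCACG
CRELD2, chr22:49918554-49918572, minus strand: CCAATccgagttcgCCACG
The fixed ends are the same by the search rule, and the 9 bases between them differ from gene to gene. The HSP90B1 promoter holds 2 matches on opposite strands. The single CANX match was seen in 3 windows, since 3 CANX starts lie near it.

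Other forms of stress element were rarer among the members. The shorter ERSE-II, searched as ATTGG, any base and CCACG on both strands, was found in windows of HYOU1, SDF2L1 and HERPUD1, 3 of 47 (6.38%) against 19 of all windows (0.0544%). The HYOU1 window holds 2 of them. The core of the unfolded protein response element, TGACGTGG, was found in 6 of 47 windows (12.8%), those of HYOU1, DNAJC10, SEC62, SSR3, SSR4 and KDELR3, against 255 of all windows (0.73%). In HYOU1 this core overlaps 1 of the ERSE-II matches. These elements too are known from genes of this response, and the counts over all windows again include the members, so the shares are descriptions only. A match of letters is a description of the window and not evidence that a factor binds there.

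**Figure D1:**
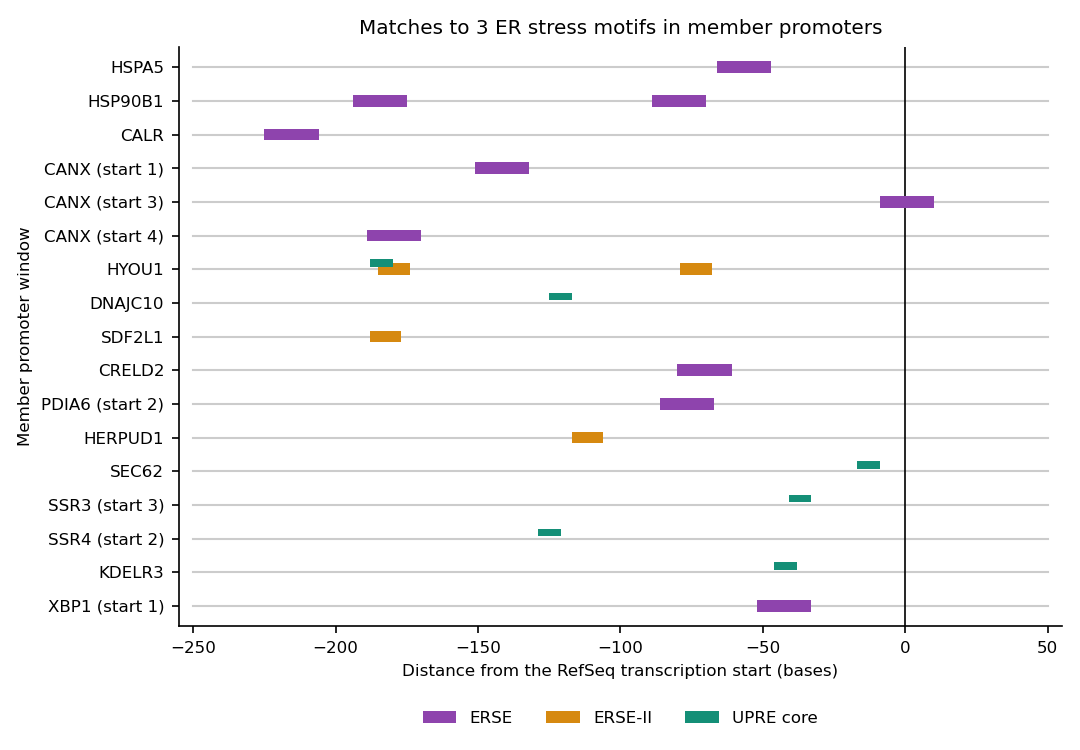
Matches to the ERSE, the ERSE-II and the core of the unfolded protein response element in member promoter windows, by distance from the RefSeq transcription start in bases, 1 line per window. Most ERSE matches lie upstream of the start, at -66 to -48 in HSPA5, -86 to -68 in PDIA6 and -52 to -34 in XBP1.

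Among the genes with an ERSE, XBP1 and PDIA6 had the largest ratios to control-CM and HSPA5 a much smaller one, so their promoters are printed together, 5′ to 3′ on the minus strand, with the whole ERSE in capitals.
XBP1 promoter, chr22:28800520-28800819: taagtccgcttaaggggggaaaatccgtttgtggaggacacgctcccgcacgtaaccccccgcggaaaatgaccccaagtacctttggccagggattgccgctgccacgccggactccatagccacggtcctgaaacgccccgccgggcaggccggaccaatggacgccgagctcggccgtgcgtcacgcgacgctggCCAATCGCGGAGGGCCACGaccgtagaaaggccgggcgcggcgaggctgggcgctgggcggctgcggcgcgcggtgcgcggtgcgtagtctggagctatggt
PDIA6 promoter, chr2:10812736-10813035: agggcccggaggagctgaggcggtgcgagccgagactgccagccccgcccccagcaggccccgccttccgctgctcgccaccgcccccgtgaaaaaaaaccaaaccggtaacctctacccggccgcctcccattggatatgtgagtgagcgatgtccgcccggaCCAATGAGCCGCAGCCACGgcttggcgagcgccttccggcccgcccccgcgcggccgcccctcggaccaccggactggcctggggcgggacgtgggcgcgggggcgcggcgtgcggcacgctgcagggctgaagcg
HSPA5 promoter, chr9:125241294-125241593: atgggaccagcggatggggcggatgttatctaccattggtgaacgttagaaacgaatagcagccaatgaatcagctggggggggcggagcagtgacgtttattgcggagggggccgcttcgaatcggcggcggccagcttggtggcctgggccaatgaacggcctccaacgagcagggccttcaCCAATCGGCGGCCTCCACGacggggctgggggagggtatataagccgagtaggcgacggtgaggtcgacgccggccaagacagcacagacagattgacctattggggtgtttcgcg
Both XBP1 and PDIA6 have a further RefSeq start, whose windows hold no ERSE. The HSPA5 gene, which encodes BiP, has a single window.

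Levels are given as scaled CPM, CPM after TMM scaling (counts per 1000000, with factors from the trimmed mean of M values, which corrects for a few abundant RNAs taking up a library). A gene was counted as higher or lower at a 1.5-fold ratio, among the 12256 genes whose raw counts averaged 50 or more. The range after each fold is an exact conditional binomial (Clopper-Pearson) 95% interval, which covers counting error only. Library totals were 16965584 counts in PPAT-CM, 14174241 in PVAT-CM and 16534649 in control-CM. Mitochondrially encoded RNA took 15.5% of counts in PPAT-CM, 21.1% in PVAT-CM and 30.8% in control-CM. All 10 luminal prostate markers were detected in each library, with a summed level of 2733 scaled CPM in PPAT-CM, 3651 in PVAT-CM and 3603 in control-CM. KLK3, which encodes prostate-specific antigen, stood at 249 scaled CPM in PPAT-CM, 700 in PVAT-CM and 678 in control-CM. Both this gene and the sum were lowest in PPAT-CM, and their part in the results below was not tested. Plasma cells express XBP1 and secretory genes strongly. Their 8 markers summed to 58 counts in PPAT-CM, 18 in PVAT-CM and 25 in control-CM, with IGKC at 0 throughout. In the same order, IGHG1 held 28, 2 and 6 of these counts, MZB1 11, 10 and 6, and CD79A 10, 3 and 2. TNFRSF17 held 6, 0 and 2, JCHAIN 1, 0 and 2, IGHA1 1, 0 and 0, and PRDM1 1, 3 and 7. Their part in the XBP1 level was not tested. Of the 7 adipocyte markers, ADIPOQ, CD36, FABP4, LEP and LPL were at 0 in every library, and PLIN1 gave 89 counts in PPAT-CM, 27 in PVAT-CM and 13 in control-CM. PTPRC, CD3E, CD2 and MS4A1 of the 8 leukocyte markers were at 0 in every library, and the leukocyte list summed to 10 to 17 counts. COL1A2, DCN and PDGFRA of the 7 fibroblast markers were also at 0, and that list summed to 534 counts in PPAT-CM, 371 in PVAT-CM and 792 in control-CM, most of them COL1A1. CDH5 and KDR of the 5 endothelial markers were at 0, and that list summed to 23 to 42 counts. In bulk RNA, fewer cells that express a gene and less of its RNA per cell cannot be told apart.

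Of the 42 genes, 41 passed the count filter. The exception was DERL3, a degradation factor of secretory cells, with 5 counts in PPAT-CM, 4 in PVAT-CM and 0 in control-CM. A count that low is near the floor of 3 counts, and 77% of DERL3's exon bases are shared with SMARCB1 on the opposite strand, so no fold is given. In PPAT-CM against control-CM, 7 of the 41 were at least 1.5-fold higher, where 12% of all genes were, and 0 were at least 1.5-fold lower, where 8.71% of all genes were. In PVAT-CM against control-CM, 8 were higher, against 3.15% of all genes, and 0 lower, against 3.49%. In PPAT-CM against PVAT-CM, 1 was higher, against 8.56% of all genes, and 2 lower, against 6.07%. These comparisons share libraries and are given side by side, not as independent findings.

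At a stricter 2-fold threshold only XBP1 and PDIA6 remained in PPAT-CM over control-CM, 2 of 41 against 3.93% of all genes, with 0 lower against 2.74%. At 2-fold PVAT-CM over control-CM had 0 members higher, against 0.465% of all genes, and 0 lower, against 0.441%. PPAT-CM over PVAT-CM had 1 higher, XBP1, against 2.45%, and 0 lower, against 1.47%. A looser threshold, a log2 ratio of 0.32, shows how broad the small differences were. It was passed upward by 13 of 41 in PPAT-CM over control-CM, where 25.5% of all genes passed it, and downward by 3, DNAJB11, SEL1L and KDELR1, where 20.3% did. In PVAT-CM over control-CM it was passed upward by 27 of 41, where 13.6% of all genes passed it, among them 15 of the 16 chaperones, and downward by 0, where 12.2% did. In PPAT-CM over PVAT-CM it was passed upward by 3, XBP1, PDIA6 and SEC61G, where 20.3% of all genes passed it, and downward by 13, where 16.4% did.

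The shift of the genes as a whole was clearest in PVAT-CM. The median log2 ratio of PVAT-CM over control-CM was 0.42 for the 41 genes and 0.02 for all genes. For PPAT-CM over control-CM it was 0.11, against 0.03 for all genes, and for PPAT-CM over PVAT-CM it was -0.22, against 0.02. A ratio above 1 was seen for 37 of 41 in PVAT-CM over control-CM, where 53.1% of all genes had one, for 32 of 41 in PPAT-CM over control-CM, against 52.6%, and for 10 of 41 in PPAT-CM over PVAT-CM, against 52.3%. With total-count scaling these numbers were 40, 38 and 13, and with upper quartile scaling 37, 25 and 8. The shares of all genes above hold for TMM scaling only. In the same order, the median log2 ratio of all genes was 0.15, 0.27 and 0.13 with total counts. With upper quartile scaling it was 0.0005, -0.05 and -0.04. By order of the libraries, 29 of the 41 genes were highest in PVAT-CM, 10 in PPAT-CM and 2 in control-CM. In turn 30 were lowest in control-CM, 9 in PPAT-CM and 2 in PVAT-CM. The order was not counted over all genes, so these numbers have no background share and only describe the members.

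The spread among the genes differed as well. In PPAT-CM over control-CM the log2 ratios ran from -0.38 for DNAJB11 to 1.92 for XBP1, with a standard deviation over genes of 0.44, against 0.60 over all genes. In PVAT-CM over control-CM they ran from -0.17 for EDEM2 to 0.88 for PDIA6, with a standard deviation of 0.23, against 0.32 over all genes. The wider spread in PPAT-CM was thus also that of all genes. XBP1 lay far above the other members in PPAT-CM.

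**Figure D2:**
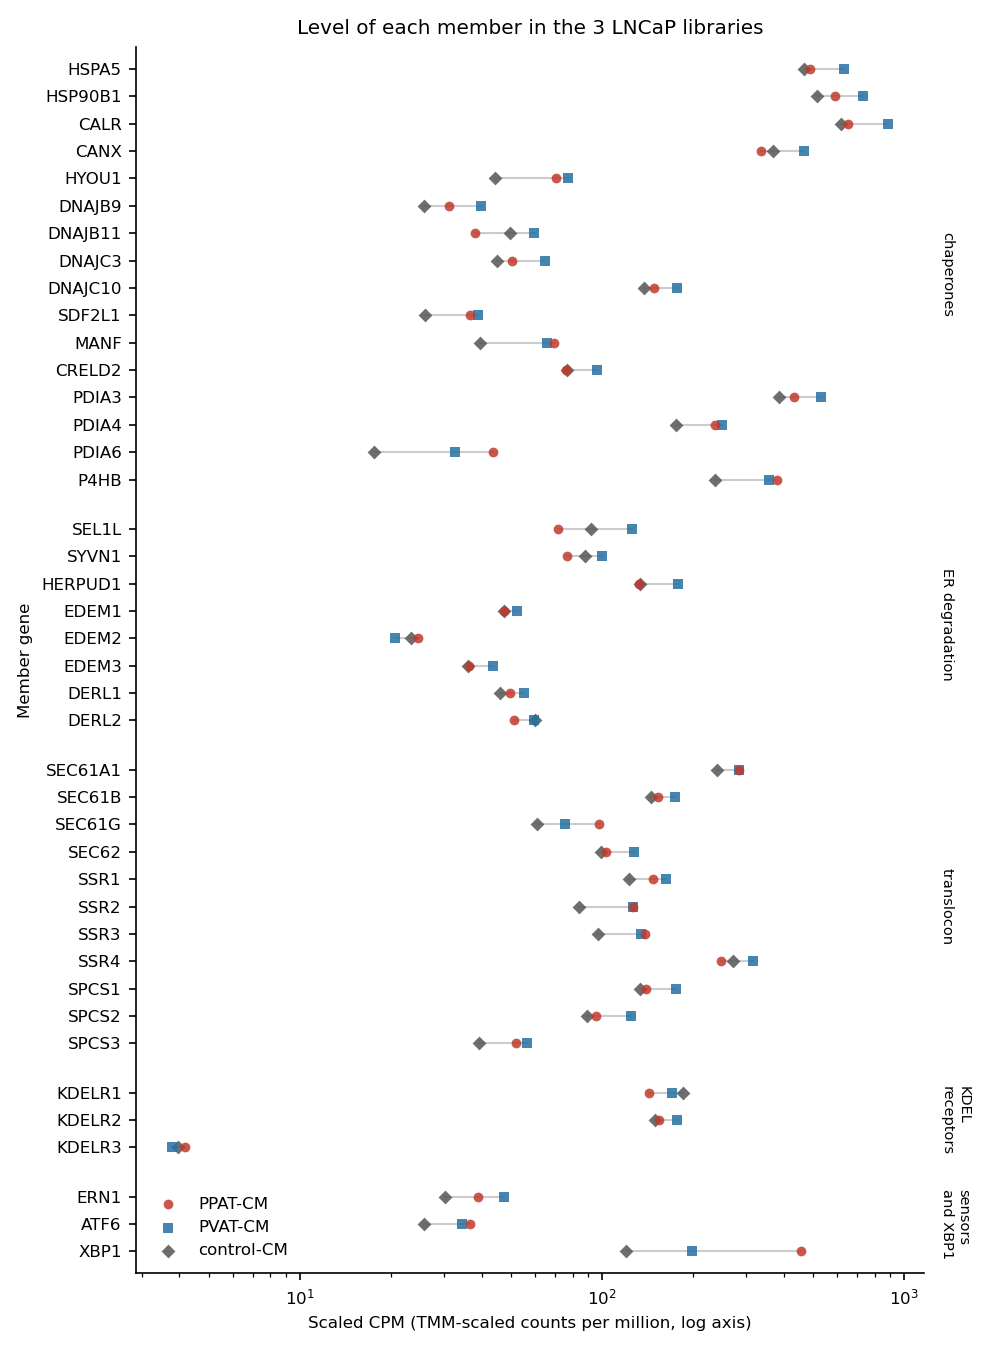
Level of each of the 41 genes that passed the count filter, in scaled CPM on a log axis, in PPAT-CM (red circles), PVAT-CM (blue squares) and control-CM (grey diamonds), 1 library each. The blue squares lie rightmost for 29 genes, a count without a share over all genes, and XBP1, at 456 scaled CPM in PPAT-CM, shows the widest gap.

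XBP1 (ENSG00000100219, chr22:28794555-28800597, minus strand) encodes the transcription factor of the IRE1 branch, which drives ER expansion in secretory cells. It stood at 456 scaled CPM in PPAT-CM, 199 in PVAT-CM and 120 in control-CM, from 8393, 2837 and 1823 raw counts. PPAT-CM was the highest of the libraries and control-CM the lowest, with PVAT-CM nearer to control-CM. The fold was 3.80 (3.61 to 4.0) for PPAT-CM over control-CM, 1.66 (1.56 to 1.76) for PVAT-CM over control-CM and 2.29 (2.20 to 2.39) for PPAT-CM over PVAT-CM. From the highest ratio down, XBP1 held rank 97 of 12256 genes in the first of these comparisons, rank 183 in the second and rank 202 in the last. Its single pseudogene row held 0.0843% as many counts as XBP1 itself.

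Whether the XBP1 mRNA was in its spliced form cannot be read from gene-level counts, because IRE1 removes only 26 bases. The removed stretch is printed because it is the switch of this branch: 15 bases of exon on each side in lower case and the intron in capitals, on the sense strand, with the intron at chr22:28796124-28796149 (GRCh38).
XBP1 intron: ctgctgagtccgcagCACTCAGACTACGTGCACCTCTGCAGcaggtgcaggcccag
The intron lies within the coding sequence, and its removal changes the reading frame downstream. GENCODE release 29 lists 7 XBP1 transcripts, of which 4 keep these bases and 2 lack them. Both kinds add to the same row of the count table.

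ERN1, which encodes the sensor IRE1, stood at 38.9 scaled CPM in PPAT-CM, 47.6 in PVAT-CM and 30.2 in control-CM. It was highest in PVAT-CM, unlike its substrate XBP1. Its fold over control-CM was 1.29 (1.15 to 1.45) in PPAT-CM and 1.57 (1.40 to 1.78) in PVAT-CM. ATF6, the sensor that becomes a transcription factor on cleavage, stood at 36.5 scaled CPM in PPAT-CM, 34.5 in PVAT-CM and 25.8 in control-CM. Control-CM was the lowest for ATF6 and the other libraries were close, with folds over control-CM of 1.41 (1.247 to 1.61) in PPAT-CM and 1.34 (1.17 to 1.53) in PVAT-CM. Per kilobase of exon the sensors are scarce transcripts: in control-CM ERN1 had 2.78 and ATF6 3.28 scaled CPM per kb, ranks 40 and 39 of the 42 genes, where XBP1 had 39.7 at rank 12. In PPAT-CM XBP1 had 151 scaled CPM per kb.

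The chaperones, which hold and fold nascent chains, were as a group highest in PVAT-CM. Their summed level was 3676 scaled CPM in PPAT-CM, 4503 in PVAT-CM and 3226 in control-CM, so the sum was 1.14-fold higher (1.13 to 1.15) in PPAT-CM and 1.40-fold higher (1.38 to 1.41) in PVAT-CM than in control-CM. All 16 had a ratio above 1 in PVAT-CM over control-CM, where 53.1% of all genes did, with a median log2 ratio of 0.51. Of the 16, 5 (31.2%) were past 1.5-fold, against 3.15% of all genes. In PPAT-CM over control-CM 13 of the 16 had a ratio above 1, against 52.6% of all genes, with a median of 0.18, and 4 (25%) were past 1.5-fold, against 12%.

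HSPA5 encodes BiP, the Hsp70 of the ER and the usual readout of its stress. It stood at 488 scaled CPM in PPAT-CM, 631 in PVAT-CM and 467 in control-CM. PVAT-CM was the highest, and PPAT-CM and control-CM were close. The fold over control-CM was 1.04 (1.01 to 1.08) in PPAT-CM, which turned just below 1 with upper quartile scaling, and 1.35 (1.31 to 1.40) in PVAT-CM, and PPAT-CM was 1.29-fold lower (1.26 to 1.33) than PVAT-CM.

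HSP90B1, the ER Hsp90 (GRP94), stood at 589 scaled CPM in PPAT-CM, 731 in PVAT-CM and 514 in control-CM. CALR, which encodes calreticulin, stood at 652, 887 and 619 in the same order. CANX, which encodes its membrane-bound counterpart calnexin, stood at 336, 465 and 368. All 3 were highest in PVAT-CM. PVAT-CM over control-CM gave 1.42 (1.38 to 1.47) for HSP90B1, 1.43 (1.40 to 1.47) for CALR and 1.27 (1.22 to 1.31) for CANX. PPAT-CM over control-CM gave 1.15 (1.11 to 1.18) for HSP90B1 and 1.05 (1.03 to 1.08) for CALR, while CANX was 1.09-fold lower (1.05 to 1.13), a direction that turned with total-count scaling. Per kilobase, CALR was the most abundant of the 42 genes in control-CM, at 228 scaled CPM per kb, with HSPA5 at 119 and HSP90B1 at 109.

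HYOU1 encodes a large Hsp70-like chaperone that exchanges nucleotide on BiP. It stood at 70.8 scaled CPM in PPAT-CM, 77.3 in PVAT-CM and 44.4 in control-CM. Control-CM was the lowest by a wide gap, with folds of 1.59 (1.45 to 1.75) in PPAT-CM and 1.74 (1.58 to 1.92) in PVAT-CM. MANF, a small secreted ER factor that binds BiP, stood at 69.6 scaled CPM in PPAT-CM, 65.6 in PVAT-CM and 39.6 in control-CM. Control-CM was again the lowest, with folds over it of 1.76 (1.59 to 1.94) in PPAT-CM and 1.66 (1.49 to 1.84) in PVAT-CM, but PVAT-CM was the highest for HYOU1 and PPAT-CM for MANF.

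The J-domain proteins that bring clients to BiP did not share a layout. DNAJB9 (ERdj4) stood at 31.2 scaled CPM in PPAT-CM, 39.7 in PVAT-CM and 25.8 in control-CM, with folds over control-CM of 1.21 (1.06 to 1.38) and 1.54 (1.35 to 1.75). DNAJB11 (ERdj3, ENSG00000090520, chr3:186567403-186585800) stood at 38.2 scaled CPM in PPAT-CM, 59.8 in PVAT-CM and 49.6 in control-CM. For DNAJB11, unlike DNAJB9, PPAT-CM was the lowest library: it was 1.57-fold lower (1.41 to 1.73) than PVAT-CM and 1.30-fold lower (1.17 to 1.44) than control-CM. Both are known from mouse cells as targets of spliced XBP1, as is EDEM1 among the degradation genes. They are examples only, since the members were not sorted into such targets and others. Whether targets of XBP1 followed its level was therefore not tested. DNAJB11 had the lowest of all member ratios of PPAT-CM over control-CM, and XBP1 the highest.

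Disulfide isomerases make and rearrange the disulfide bonds of secreted proteins. P4HB (PDIA1) stood at 378 scaled CPM in PPAT-CM, 356 in PVAT-CM and 236 in control-CM. Control-CM was the lowest, with PPAT-CM and PVAT-CM higher, at 1.60-fold (1.54 to 1.67) in PPAT-CM and 1.51-fold (1.45 to 1.58) in PVAT-CM. PDIA6 (ENSG00000143870, chr2:10783391-10837977, minus strand), which also binds IRE1, stood at 43.7 scaled CPM in PPAT-CM, 32.6 in PVAT-CM and 17.7 in control-CM. PPAT-CM was the highest and control-CM the lowest, as for XBP1. The folds were 2.47 (2.15 to 2.85) for PPAT-CM over control-CM, 1.85 (1.58 to 2.15) for PVAT-CM over control-CM and 1.34 (1.19 to 1.51) for PPAT-CM over PVAT-CM. PDIA6 shares 25.2% of its exon bases with ATP6V1C2 on the opposite strand, whose own row held 26 counts in PPAT-CM, 30 in PVAT-CM and 74 in control-CM, while PDIA6 held 804, 465 and 268.

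The other 6 chaperones were DNAJC3, DNAJC10, SDF2L1, CRELD2, PDIA3 and PDIA4. None of them reached 1.5-fold in any comparison. Their folds ran from 0.994 (CRELD2) to 1.40 (SDF2L1) in PPAT-CM over control-CM and from 1.26 (CRELD2) to 1.49 (SDF2L1) in PVAT-CM over control-CM. SDF2L1, which works in a complex with BiP and DNAJB11, stood at 36.5 scaled CPM in PPAT-CM, 38.9 in PVAT-CM and 26.0 in control-CM. PDIA3, the isomerase that works with calreticulin and calnexin, stood at 431, 532 and 385.

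Set against the promoter sequences, genes with an ERSE did not share a layout. XBP1 and PDIA6 were highest in PPAT-CM, while HSPA5, HSP90B1, CALR, CANX and CRELD2 were highest in PVAT-CM, with folds of PPAT-CM over control-CM between 0.915 (CANX) and 1.15 (HSP90B1).

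**Figure D3:**
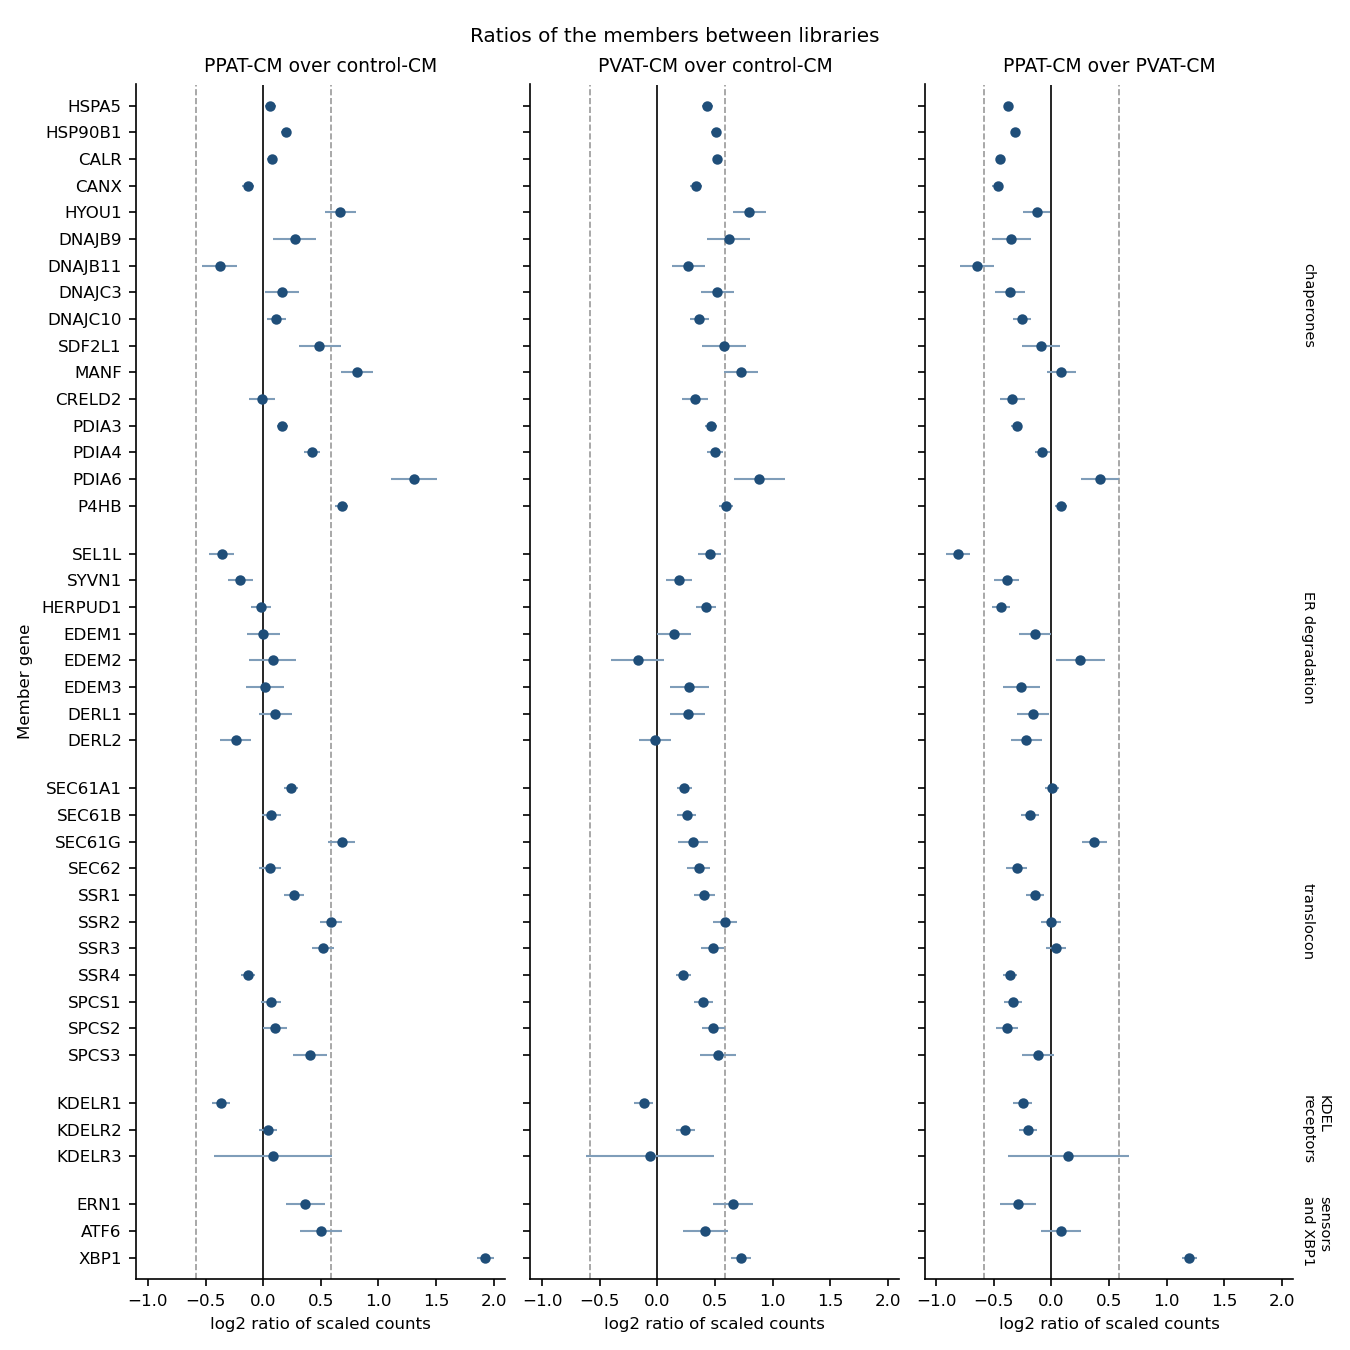
Log2 ratio of scaled counts of the 41 genes in each comparison, with exact 95% counting intervals as bars; dashed lines mark 1.5-fold. The middle panel, PVAT-CM over control-CM, has 37 of 41 points right of 0, and XBP1 stands alone at the right of the other panels, at 1.92 and 1.20.

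The ER degradation genes had a median log2 ratio near that of all genes in PPAT-CM over control-CM. It was -0.01 for PPAT-CM over control-CM, 0.23 for PVAT-CM over control-CM and -0.24 for PPAT-CM over PVAT-CM. Against control-CM, 0 of the 8 measured genes were 1.5-fold higher in PPAT-CM, where 12% of all genes were, and 0 in PVAT-CM, where 3.15% were, counts too small to set apart from those shares. A ratio above 1 in PPAT-CM over PVAT-CM was seen for 1 of the 8, against 52.3% of all genes. Their summed level, DERL3 included, was 490 scaled CPM in PPAT-CM, 636 in PVAT-CM and 526 in control-CM.

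SEL1L (ENSG00000071537, chr14:81471549-81533861, minus strand) encodes the scaffold of the degradation complex in the ER membrane. It stood at 71.6 scaled CPM in PPAT-CM, 126 in PVAT-CM and 91.8 in control-CM. PPAT-CM was the lowest and PVAT-CM the highest, with control-CM between them. PPAT-CM was 1.28-fold lower (1.19 to 1.38) than control-CM, and PVAT-CM 1.37-fold higher (1.28 to 1.47) than control-CM. PPAT-CM was 1.76-fold lower (1.63 to 1.89) than PVAT-CM, so SEL1L had the lowest member ratio of PPAT-CM over PVAT-CM, at rank 342 from the lowest of 12256 genes.

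SYVN1 (HRD1), the ubiquitin ligase that SEL1L holds, stood at 76.4 scaled CPM in PPAT-CM, 100 in PVAT-CM and 87.8 in control-CM. The order of the libraries was that of SEL1L, with smaller gaps: PPAT-CM was 1.15-fold lower (1.06 to 1.24) than control-CM, which turned above 1 with total-count scaling, and 1.31-fold lower (1.22 to 1.41) than PVAT-CM. SYVN1 shares 7.24% of its exon bases with FAU, an abundant ribosomal gene on the same strand.

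HERPUD1, a membrane protein of the ligase complex, stood at 132 scaled CPM in PPAT-CM, 179 in PVAT-CM and 134 in control-CM, so PPAT-CM and control-CM were nearly equal and PVAT-CM higher by 1.34-fold (1.26 to 1.42). The mannosidase-like proteins EDEM1, EDEM2 and EDEM3, which mark glycoproteins for disposal, had folds between 1.00 and 1.06 in PPAT-CM over control-CM, with intervals that all included 1. EDEM2 and DERL2 were the degradation genes with a ratio below 1 in PVAT-CM over control-CM. Both intervals included 1, at 0.889 (0.759 to 1.04) for EDEM2 and 0.986 (0.897 to 1.08) for DERL2. EDEM2 stood at 24.6 scaled CPM in PPAT-CM, 20.7 in PVAT-CM and 23.3 in control-CM. DERL1 and DERL2, membrane proteins of the export route, had folds of PPAT-CM over control-CM of 1.08 (0.974 to 1.19) and 0.848 (0.774 to 0.930), and DERL2 turned above 1 with total-count scaling in both comparisons with control-CM.

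The translocon genes encode the Sec61 channel, its SEC62 partner, the translocon-associated proteins SSR1 to SSR4 and the signal peptidase subunits SPCS1 to SPCS3. Their summed level was 1587 scaled CPM in PPAT-CM, 1759 in PVAT-CM and 1383 in control-CM. All 11 had a ratio above 1 in PVAT-CM over control-CM, where 53.1% of all genes did, with a median log2 ratio of 0.40. In PPAT-CM over control-CM 10 of the 11 did, against 52.6% of all genes, with a median of 0.24, and SSR4 was the other. With upper quartile scaling SEC61B, SEC62 and SPCS1 turned just below 1 in that comparison, and SSR4 turned above 1 with total-count scaling.

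SEC61A1, the pore of the channel, stood at 285 scaled CPM in PPAT-CM, 283 in PVAT-CM and 241 in control-CM. PPAT-CM and PVAT-CM differed by less than counting error and both were above control-CM, with folds of 1.18 (1.13 to 1.23) and 1.17 (1.12 to 1.23). SEC61G, a small channel subunit, stood at 97.8 scaled CPM in PPAT-CM, 75.6 in PVAT-CM and 61.0 in control-CM. It was highest in PPAT-CM, at 1.60-fold (1.48 to 1.74) over control-CM and 1.29-fold (1.20 to 1.40) over PVAT-CM. SEC61B, the remaining subunit of the channel, stood at 153, 174 and 146 scaled CPM in PPAT-CM, PVAT-CM and control-CM, so PPAT-CM and PVAT-CM were level for SEC61A1, PPAT-CM was above for SEC61G and PVAT-CM was above for SEC61B. SSR2 stood at 127 scaled CPM in PPAT-CM, 127 in PVAT-CM and 84.3 in control-CM, with folds over control-CM of 1.5 (1.40 to 1.61) and 1.51 (1.40 to 1.62). It sat at the threshold in both.

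The other 7 translocon genes had folds over control-CM between 0.913 (SSR4) and 1.43 (SSR3) in PPAT-CM and between 1.17 (SSR4) and 1.44 (SPCS3) in PVAT-CM. SPCS1 shares 50.7% of its exon bases with NEK4 on the opposite strand. The 4 translocon-associated proteins split in PPAT-CM: SSR2 and SSR3 were near 1.5-fold over control-CM, SSR1 was at 1.20 (1.13 to 1.28) and SSR4 at 0.913 (0.875 to 0.952).

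The KDEL receptors, which bind the retrieval signal of soluble ER chaperones in the Golgi, differed among themselves. KDELR1 stood at 143 scaled CPM in PPAT-CM, 171 in PVAT-CM and 185 in control-CM. Control-CM was the highest, as for no other member but DERL2, whose control-CM and PVAT-CM levels differed by less than counting error. KDELR1 was 1.29-fold lower (1.22 to 1.36) in PPAT-CM and 1.09-fold lower (1.03 to 1.15) in PVAT-CM than in control-CM, and the second of these turned above 1 with total-count scaling. KDELR2 stood at 154 scaled CPM in PPAT-CM, 177 in PVAT-CM and 150 in control-CM. KDELR3 stood at 4.19, 3.79 and 3.96, from 77, 54 and 60 counts. PVAT-CM was the highest for KDELR2, with 1.18-fold (1.12 to 1.253) over control-CM, and the KDELR3 counts allow no order, since its fold of PPAT-CM over control-CM was 1.06 (0.746 to 1.51). The sum of the receptors was 302 scaled CPM in PPAT-CM, 352 in PVAT-CM and 339 in control-CM.

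**Figure D4:**
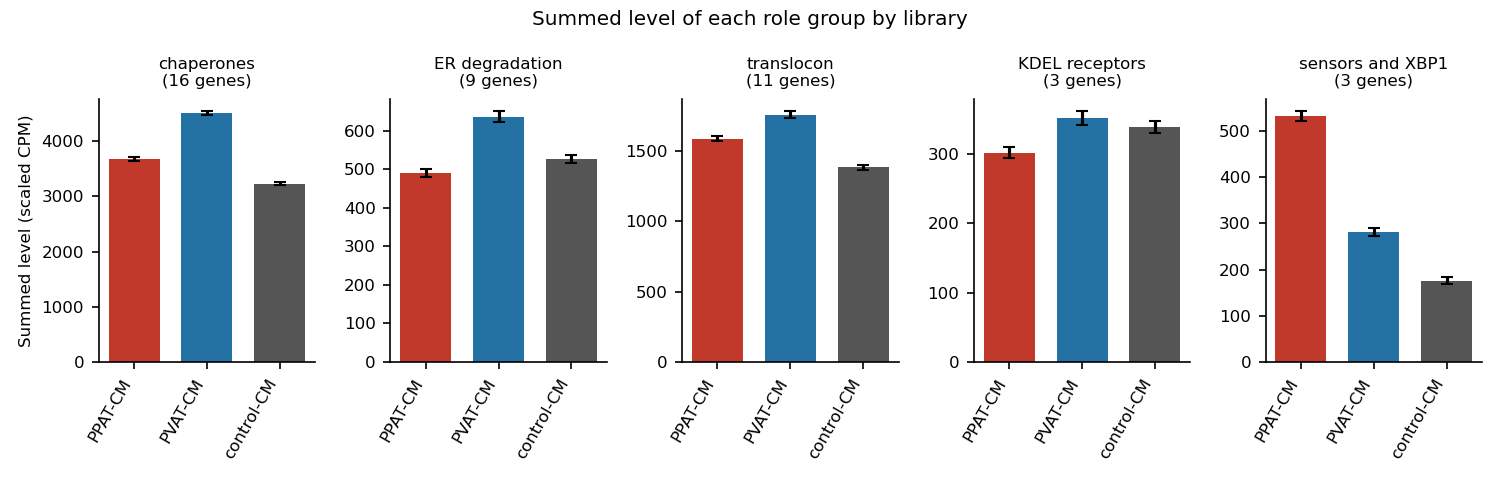
Summed scaled CPM of each role group in PPAT-CM, PVAT-CM and control-CM, 1 library each, with exact Poisson 95% intervals (counting error only) as bars. Each panel has its own axis; PVAT-CM is highest in all groups but the last, where XBP1 puts PPAT-CM at 532 scaled CPM against 281 and 176.

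XBP1 made up part of the difference between the sums of PPAT-CM and control-CM. Summed over all 42 genes the level was 6586 scaled CPM in PPAT-CM, 7532 in PVAT-CM and 5651 in control-CM. Without XBP1 it was 6130, 7333 and 5531, so PPAT-CM was 1.17-fold (1.16 to 1.18) above control-CM with XBP1 and 1.11-fold (1.10 to 1.12) without it, while PVAT-CM was 1.33-fold above in both cases.

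Another 121 genes of the same route, in 6 lists, show how far the layout extends, and 116 of them passed the count filter. In PPAT-CM over control-CM 13 of the 116 (11.2%) were at least 1.5-fold higher, near the 12% of all genes, and 2 (1.72%) lower, against 8.71%, with a median log2 ratio of 0.15. In PVAT-CM over control-CM 10 (8.62%) were higher, against 3.15% of all genes, and 0 lower, against 3.49%, with a median of 0.17. In PPAT-CM over PVAT-CM 1 (0.862%) was higher, against 8.56%, and 3 (2.59%) lower, against 6.07%, with a median of -0.06. The median in PVAT-CM was therefore below the 0.42 of the members, and that in PPAT-CM was close to theirs.

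The oligosaccharyltransferase list, whose enzyme attaches N-glycans as chains enter the ER, had medians of 0.39 for PPAT-CM over control-CM and 0.40 for PVAT-CM over control-CM, with 2 of 12 (16.7%) past 1.5-fold in each, against 12% of all genes in PPAT-CM and 3.15% in PVAT-CM. STT3A, 1 of its catalytic subunits, stood at 130 scaled CPM in PPAT-CM, 120 in PVAT-CM and 78.5 in control-CM. STT3B, the other, was 1.37-fold (1.29 to 1.46) over control-CM in PPAT-CM and 1.15-fold (1.08 to 1.24) in PVAT-CM. In the list of other folding factors the medians were 0.14 and 0.33, with 2 of 19 (10.5%) higher in PPAT-CM and 3 (15.8%) in PVAT-CM, against the same shares. ERP29, an ER folding factor, stood at 205 scaled CPM in PPAT-CM, 213 in PVAT-CM and 111 in control-CM, which is 1.85-fold (1.74 to 1.96) and 1.92-fold (1.81 to 2.04) over control-CM. TXNDC12, an ER thioredoxin, had the highest ratios of that list, 3.55 (2.16 to 6.09) and 3.03 (1.79 to 5.33), from only 86 counts in PPAT-CM, 57 in PVAT-CM and 20 in control-CM.

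In the list of targeting and cleavage, with medians of 0.24 and 0.20 against control-CM, 3 of 17 (17.6%) were higher in PPAT-CM, against 12% of all genes, and 1 (5.88%) in PVAT-CM, against 3.15%. SEC11C, a catalytic subunit of signal peptidase, stood at 422 scaled CPM in PPAT-CM, 305 in PVAT-CM and 173 in control-CM. It followed the order of XBP1, with folds over control-CM of 2.44 (2.33 to 2.55) in PPAT-CM and 1.76 (1.68 to 1.85) in PVAT-CM. SEC11A, also a catalytic subunit, was at 1.07 (1.01 to 1.14) and 1.21 (1.14 to 1.29) in the same order. The partner subunits SPCS1, SPCS2 and SPCS3 reached at most 1.44. TRAM2, of the same list, was 1.70-fold higher (1.36 to 2.12) in PPAT-CM than in control-CM.

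ER-to-Golgi genes had medians of 0.15 in PPAT-CM and 0.13 in PVAT-CM against control-CM. Higher by 1.5-fold were 3 of 29 (10.3%) in PPAT-CM, against 12% of all genes, and 1 (3.45%) in PVAT-CM, against 3.15%, both near the background. TMED2, a cargo receptor, was 1.79-fold (1.69 to 1.89) and 1.61-fold (1.51 to 1.71) over control-CM in PPAT-CM and PVAT-CM. SEC22B, a fusion protein of these vesicles, was the only gene of the 116 at least 1.5-fold higher in PPAT-CM than in PVAT-CM. It stood at 65.7 scaled CPM in PPAT-CM, 43.6 in PVAT-CM and 39.0 in control-CM. Its fold of PPAT-CM over PVAT-CM, 1.51 (1.37 to 1.66), sat at the threshold, with TRAM2 just below at 1.47 (1.19 to 1.83). Other ER degradation genes had medians of 0.20 and 0.06, with 2 of 20 (10%) higher in each, against 12% and 3.15% of all genes, RNF139 and ERLEC1, of which ERLEC1, a lectin of the SEL1L complex, stood at 36.2, 33.7 and 20.3 scaled CPM in PPAT-CM, PVAT-CM and control-CM.

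The list of other unfolded protein response signalling genes had the lowest medians of these 6 lists against control-CM in PPAT-CM, at -0.05, with 1 of 19 (5.26%) higher, against 12% of all genes, and 2 (10.5%) lower, against 8.71%. In PVAT-CM the median was 0.16. It holds the PERK branch. EIF2AK3, which encodes PERK itself and is, with DDIT3, the pair of lower genes, stood at 13.8 scaled CPM in PPAT-CM, 21.3 in PVAT-CM and 22.3 in control-CM. PPAT-CM was the lowest, 1.61-fold (1.37 to 1.91) below control-CM and 1.54-fold (1.30 to 1.83) below PVAT-CM. DDIT3, which encodes the stress factor CHOP downstream of PERK, stood at 65.3 scaled CPM in PPAT-CM, 126 in PVAT-CM and 100 in control-CM, so PPAT-CM was 1.93-fold lower (1.80 to 2.08) than PVAT-CM.

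TRIB3, a target of CHOP, stood at 81.6, 125 and 71.2 scaled CPM in PPAT-CM, PVAT-CM and control-CM, and was highest in PVAT-CM at 1.76-fold (1.63 to 1.90) over control-CM. CREB3, an ER-anchored factor of the ATF6 kind, stood at 35, 26.3 and 19.4 in the same order, with 1.80-fold (1.56 to 2.07) over control-CM in PPAT-CM. EIF2AK3, DDIT3 and TRIB3, all of the PERK branch, are the 3 lower genes of PPAT-CM over PVAT-CM, a comparison in which XBP1 was higher. Against control-CM the genes of this branch did not share a direction in PPAT-CM. EIF2AK3, DDIT3 and PPP1R15A were lower. TRIB3 was higher at 1.15-fold (1.06 to 1.24), as were ATF4 at 1.09-fold (1.07 to 1.12) and PPP1R15B at 1.22-fold (1.11 to 1.33).

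**Figure D5:**
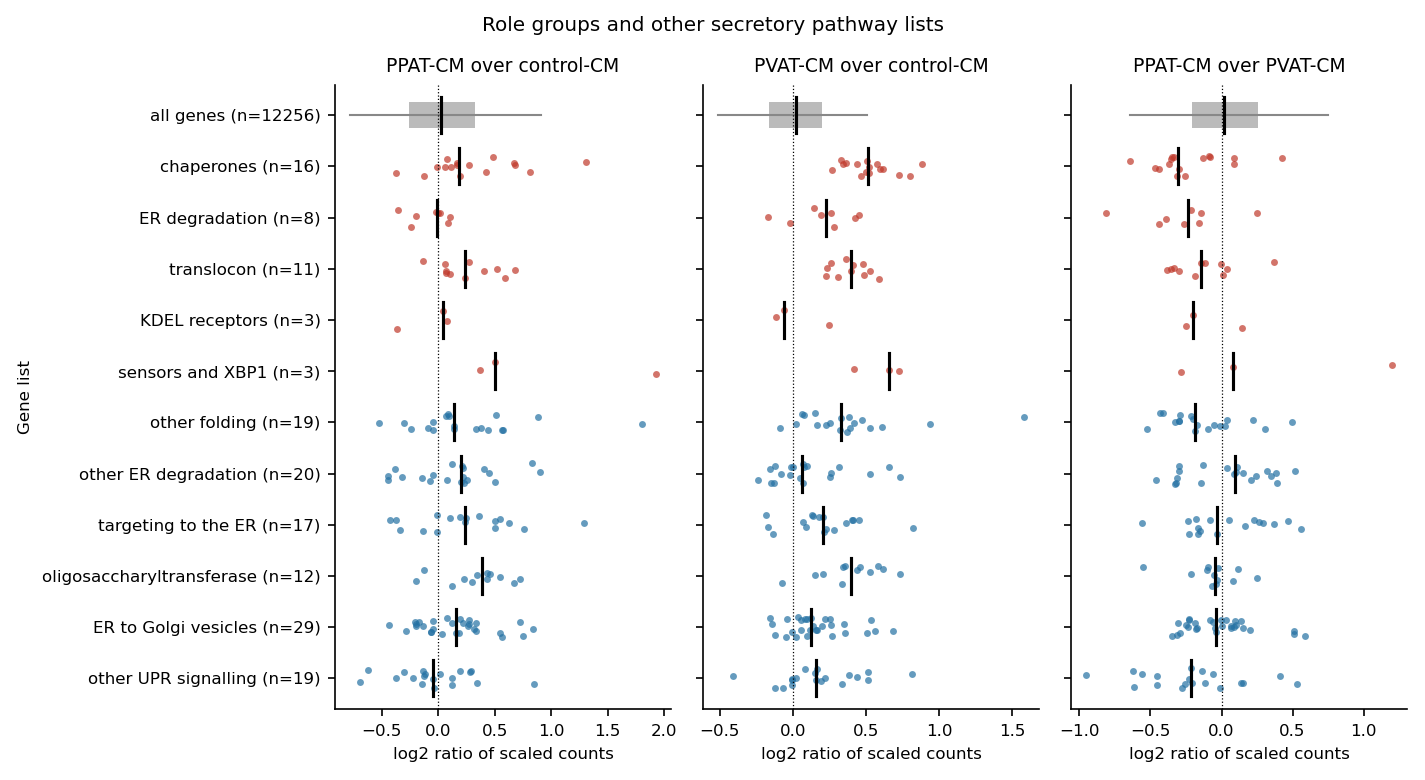
Log2 ratio of scaled counts of the 41 genes by role (red) and of 116 other secretory pathway genes by list (blue), 1 point per gene, with medians as black bars, in each comparison. The top row gives all 12256 genes, with the middle 50% as a grey box and the middle 90% as a line; chaperones and translocon genes in PVAT-CM over control-CM lie wholly above 0.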

How the data were processed

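RNA was sequenced from 3 LNCaP libraries, 1 for each conditioned medium. The deposited table holds raw counts per gene, whole numbers that the authors did not normalize. Per the submitters' processing notes, FastQC, Trimmomatic, HISAT2, featureCounts and edgeR were used with GRCh38. Their versions and settings, strand included, are not given there, and genes that overlap on opposite strands may hold each other's reads. Pseudogene rows of members held at most 2.79% as many counts as the gene.

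Rows were matched to GENCODE release 29, which annotated 58611 of 58884. TMM factors from edgeR 4.0.16 (R 4.3.3) were 1.08 in PPAT-CM, 1.01 in PVAT-CM and 0.917 in control-CM. Log2 ratios used a pseudocount of 0.5, and genes needed a mean count of at least 50. Printed folds are ratios of scaled counts with exact 95% intervals. Intervals cover counting error only, since the reads carry no molecular identifiers and are not independent molecules. A count of 0 was read against a floor of 3 counts, which is 0.163 scaled CPM in PPAT-CM, 0.210 in PVAT-CM and 0.198 in control-CM. A quasi-likelihood test in edgeR could not be run, as 1 library a medium leaves no residual degrees of freedom. Python 3.11.15, numpy 2.4.6, pandas 2.3.3, scipy 1.17.1 and matplotlib 3.10.9 were used, and the steps were tested on simulated data.

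Promoter windows came from RefSeq (GRCh38.p14), with 34943 distinct windows in all. The XBP1 intron came from GENCODE transcripts.

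The members and lists were chosen with earlier results of these data known. Named are members past 1.5-fold in any comparison, central genes of each role, members under the count minimum, up to 2 genes past 1.5-fold per other list and comparison, and a few chosen after their values were seen. Alternatives were DESeq2 1.42.0 size factors, total counts, upper quartile factors, TMM without mitochondrial genes, count minimums of 10 and 200 or none, thresholds of 2-fold and of a log2 ratio of 0.32, a pseudocount of 5, intervals that exclude 1, and means.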

Additional observations from a re-analysis of the deposited data

How the results depend on the processing

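Both the threshold and the scaling moved the counts of members. Total counts without a composition factor moved the median of all genes by 0.24, 0.13 and 0.11 on the log2 scale in PPAT-CM over control-CM, PVAT-CM over control-CM and PPAT-CM over PVAT-CM. With them, 13 members were at least 1.5-fold higher in PPAT-CM than in control-CM, where 24.1% of all genes were. Over control-CM, PVAT-CM had 18 higher, against 6.67% of all genes. In PPAT-CM against PVAT-CM 1 was lower, against 4.18% of all genes. Upper quartile factors gave 6 higher in PPAT-CM than in control-CM, where 9.74% of all genes were, and 6 in PVAT-CM, where 2.9% were. TMM without mitochondrial genes gave 6 in PPAT-CM, against 11.6% of all genes, and 8 in PVAT-CM, against 3.15%. The member medians with total counts were 0.35, 0.55 and -0.11, and the XBP1 log2 ratios 2.17, 0.86 and 1.31. A scaling shifts every gene alike, so the distance of the member medians from those of all genes, 0.08, 0.40 and -0.24, is fixed by construction. Upper quartile factors gave XBP1 1.85 in PPAT-CM over control-CM. At 2-fold, 2 members were higher in PPAT-CM than in control-CM, 0 in PVAT-CM than in control-CM, and 0 lower in PPAT-CM against PVAT-CM. At a log2 ratio of 0.32, 13 were higher and 3 lower in PPAT-CM than in control-CM, and 27 higher in PVAT-CM than in control-CM. In PPAT-CM against PVAT-CM 3 were higher and 13 lower. The shares of all genes at both thresholds are given above. The mean of the members in PPAT-CM over control-CM was 0.24. An alternative chosen after seeing the data left out members that share over 20% of exon bases with another gene. It left 6 of 39 members higher in PPAT-CM than in control-CM, against 12% of all genes, and 7 in PVAT-CM, against 3.15%. Of 477 single-member values, 53 moved beyond their counting interval, 42 of them upward with total counts, and 0 of the ratios past 1.5-fold changed sign. Smaller ratios did: total counts turned 6, 3 and 3 members in the same order of comparisons, SSR2 in PPAT-CM over PVAT-CM among them, upper quartile factors 7, 0 and 2, and TMM without mitochondrial genes 1, 0 and 1.

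No paired analysis was possible because each medium had 1 library. Leaving out a replicate was not possible for the same reason. Counting error is small at this depth for all members but KDELR3 and DERL3, and the spread between cultures is unknown.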
